A study of Mus musculus with 2 samples.

Results

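The genes described here are 40 genes of mitosis and of the G2/M stage of the cell cycle, chosen by name: the cyclin-dependent kinase Cdk1 with its cyclins and adaptors, the mitotic kinases, the spindle checkpoint, the kinetochore, the spindle motors, the genes of anaphase onset, chromosome structure and cytokinesis. All 40 were found among the 33696 features of the deposited matrix. The cells were of KPCY 6419c5, a mouse pancreatic ductal adenocarcinoma line that carried the BASELINE lineage-tracing system and had been transfected with Cas12a-ABE, an adenine base editor built on the nuclease Cas12a. Single cells were sorted and grown into clones, and clones 76 and 84 were mixed in equal numbers after 19 days of editing and loaded as 1 droplet library with 3′ chemistry. The series also lists a sample of clones 1, 32, 33, 52 and 76, which is not analysed here.

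No label ties a cell to clone 76 or to clone 84, so the comparison was between cells assigned by marker transcripts. A cells had at least 2 UMIs (unique molecular identifiers, 1 per captured transcript) of Pde10a, Plcb1, Galnt18, Arhgap15 and Ceacam1, and at least 3 times as many as of the B genes. B cells had at least 2 UMIs of S100a7a, Rgs20, Hs6st2, Ccbe1, Ctse and Mal, and at least 3 times as many as of the A genes. None of the 40 genes is in either rule. Of 21361 cells that passed the filters, 7816 were A cells and 8936 were B cells, with 4609 in neither. A cells had a median of 4699.5 UMIs and 3.19% mitochondrial UMIs, and B cells 5440.5 UMIs and 1.89%. The epithelial keratin and junction genes checked had 2737 CPM (UMIs of the genes per 1000000 UMIs of the group) in A cells and 7578 CPM in B cells, led by Krt18. Fibroblast, acinar, endocrine, immune and erythroid genes each summed to under 4 CPM in both, and endothelial genes had 36.9 CPM in A cells and 8.70 CPM in B cells, led by Egfl7. The part of depth, of mitochondrial share and of these marker genes in the results below was not tested. With 1 library there was no replicate of either group. No test between A and B cells was possible. Intervals are exact 95% counting intervals and do not cover the spread between cultures or libraries.

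Entry into mitosis is driven by Cdk1 bound to cyclins A and B, with Plk1 and the Aurora kinases acting on centrosomes, kinetochores and the spindle. Kinetochores that have not yet attached to microtubules keep the spindle checkpoint on, which holds back Cdc20 and the anaphase-promoting complex until every chromosome is attached. The complex, charged by Ube2c, then marks securin (Pttg1) and the B cyclins for degradation, so that chromatids part and the cell divides. Most of these genes are transcribed late in the cycle, from promoters that often hold CCAAT boxes, bound by NF-Y, and a cell cycle homology element close to the start, bound by the MuvB complex with B-Myb and FoxM1 or, in resting cells, as part of the DREAM repressor.

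Promoters are shown for the 2 genes with the highest ratio of A over B cells (Bub1b and Bub1), the 2 with the lowest (Kif20b and Cks2) and the 2 that differed most between cells high and low in the other genes (Nusap1 and Cenpf). They are 300-base windows from RefSeq on GRCm38.p6, from 250 bases before the start of the gene to 50 after it, written 5′ to 3′ on the gene's strand. Capitals mark TTTGAA or TTCGAA, the letters of the cell cycle homology element, and CCAAT, on either strand, so that ATTGG is a CCAAT box read from the other strand. The build of the counts is GRCm39 per the submitters' processing notes, and the coordinates here are those of the RefSeq table only.
Bub1b (chr2:118597961-118598260, plus strand): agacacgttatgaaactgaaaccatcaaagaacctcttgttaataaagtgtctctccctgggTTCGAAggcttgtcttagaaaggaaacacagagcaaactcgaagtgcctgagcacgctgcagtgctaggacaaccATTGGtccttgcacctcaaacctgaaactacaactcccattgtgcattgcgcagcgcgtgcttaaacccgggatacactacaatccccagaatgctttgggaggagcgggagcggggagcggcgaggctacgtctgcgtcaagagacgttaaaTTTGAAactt
Bub1 (chr2:127831810-127832109, minus strand): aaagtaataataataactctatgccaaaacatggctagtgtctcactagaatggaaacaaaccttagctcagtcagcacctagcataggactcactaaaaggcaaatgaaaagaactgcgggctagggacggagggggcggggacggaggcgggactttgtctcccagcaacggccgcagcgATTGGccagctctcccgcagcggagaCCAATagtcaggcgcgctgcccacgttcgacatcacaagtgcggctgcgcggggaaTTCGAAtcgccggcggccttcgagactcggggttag
Kif20b (chr19:34922108-34922407, plus strand): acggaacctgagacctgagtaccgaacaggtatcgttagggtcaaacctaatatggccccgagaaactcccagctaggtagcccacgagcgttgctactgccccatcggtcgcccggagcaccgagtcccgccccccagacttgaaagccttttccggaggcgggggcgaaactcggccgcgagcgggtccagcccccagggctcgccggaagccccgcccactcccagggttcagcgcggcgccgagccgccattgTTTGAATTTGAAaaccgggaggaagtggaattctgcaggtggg
Cks2 (chr13:51644982-51645281, plus strand): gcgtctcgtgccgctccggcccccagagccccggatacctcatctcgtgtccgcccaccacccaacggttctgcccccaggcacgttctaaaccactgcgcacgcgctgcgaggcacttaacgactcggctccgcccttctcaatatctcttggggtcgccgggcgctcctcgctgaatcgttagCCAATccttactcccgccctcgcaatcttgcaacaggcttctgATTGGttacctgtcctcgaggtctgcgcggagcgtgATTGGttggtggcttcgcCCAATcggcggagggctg
Nusap1 (chr2:119618048-119618347, plus strand): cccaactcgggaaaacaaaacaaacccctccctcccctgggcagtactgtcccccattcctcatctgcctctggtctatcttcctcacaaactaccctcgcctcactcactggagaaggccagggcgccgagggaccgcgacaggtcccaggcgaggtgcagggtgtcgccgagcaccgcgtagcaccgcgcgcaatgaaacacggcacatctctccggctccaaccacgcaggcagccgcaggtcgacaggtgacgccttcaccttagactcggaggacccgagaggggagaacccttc
Cenpf (chr1:189688037-189688336, minus strand): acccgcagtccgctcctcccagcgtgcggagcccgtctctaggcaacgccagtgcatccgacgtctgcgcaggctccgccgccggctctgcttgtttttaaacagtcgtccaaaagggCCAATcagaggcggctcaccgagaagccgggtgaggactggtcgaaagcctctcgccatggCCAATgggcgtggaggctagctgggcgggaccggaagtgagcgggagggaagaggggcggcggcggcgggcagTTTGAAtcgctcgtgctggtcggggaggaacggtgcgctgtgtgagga

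The Bub1b window held 2 matches to the homology element and 1 CCAAT box, and that of Bub1 held 1 and 2. Kif20b, a kinesin, had 2 matches side by side just past the start and 0 CCAAT boxes. Cks2 had 4 CCAAT boxes and 0 homology elements. Cenpf had 1 match to the element, next to the start, and 2 CCAAT boxes. The Nusap1 window held neither, although Nusap1 varied most with the other genes from cell to cell.

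Of the 40 genes, 36 had a promoter in the table, and Aurkb, Ccna2, Smc4 and Tpx2 had none there. TTTGAA or TTCGAA was in 28 of the 36 and CCAAT in 27, and 24 had both in the same window. Counted by window, 78.9% of the 38 windows of these genes held the homology element, against 19.2% of all 32851 windows of the same length in the table. CCAAT was in 76.3% against 37.4%, and both were in 68.4% against 7.52%. The homology element also lay closer to the start: 28 of its 44 matches (63.6%) were within 50 bases of it, against 25.2% of the 7260 matches in all windows. For CCAAT these shares were 31.6% and 28.2%. The 24 genes with both motifs had a median ratio of cells high over cells low, explained below, of 3.33 in A cells and 2.83 in B cells, against 3.36 and 3.20 in the other 12. Their median log2 ratio of A over B was 0.27, against 0.11 in the other 12. A match of letters is a description of the window and does not show that a factor binds there.

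Taken as a sum, the 40 genes had 7858 CPM (interval 7831 to 7886) in A cells and 6385 CPM (6363 to 6406) in B cells, a ratio of 1.23 (1.22 to 1.24) for A over B, or 0.30 on the log2 scale. Hmgb2, a chromatin protein, made up 18.4% of the sum in A cells and 13.9% in B cells, and without it the log2 ratio was 0.22. All 40 genes passed a floor of 10 CPM on the mean of A and B cells. The median log2 ratio of A over B was 0.16 over the 8240 features past the same floor. The median of the 40 genes was 0.21. Only 21 of the 40 lay above the median of all features, and 19 lay below it.

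In single genes the ratios spread widely around that small shift. Counted at 1.5-fold, 11 of the 40 genes were higher in A cells, where 21.8% of all features past the floor were, and 0 were higher in B cells, where 11.8% of features were. After scaling by the median ratio over all features, 4 genes were past 1.5-fold in A cells (Bub1b, Bub1, Plk1 and Nusap1) and 0 in B cells, and the shares of all features were 15.3% and 15.8%. The same scaling turned the ratio below 1 for 11 genes that lay just above it: Cdca8, Cdk1, Cenpe, Cenpf, Hmmr, Nuf2, Pttg1, Smc2, Smc4, Tacc3 and Top2a, whose direction therefore depends on the scaling. Scaled to all UMIs, the interval of the ratio lay above 1 for 31 genes and below 1 for 5 (Kif20b, Cks2, Anln, Kif23 and Birc5), and it held 1 for 4 (Cenpe, Kif11, Racgap1 and Ccnb2). Of all features past the floor, 55.1% had an interval above 1 and 32.3% one below 1.

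**Figure D1:**
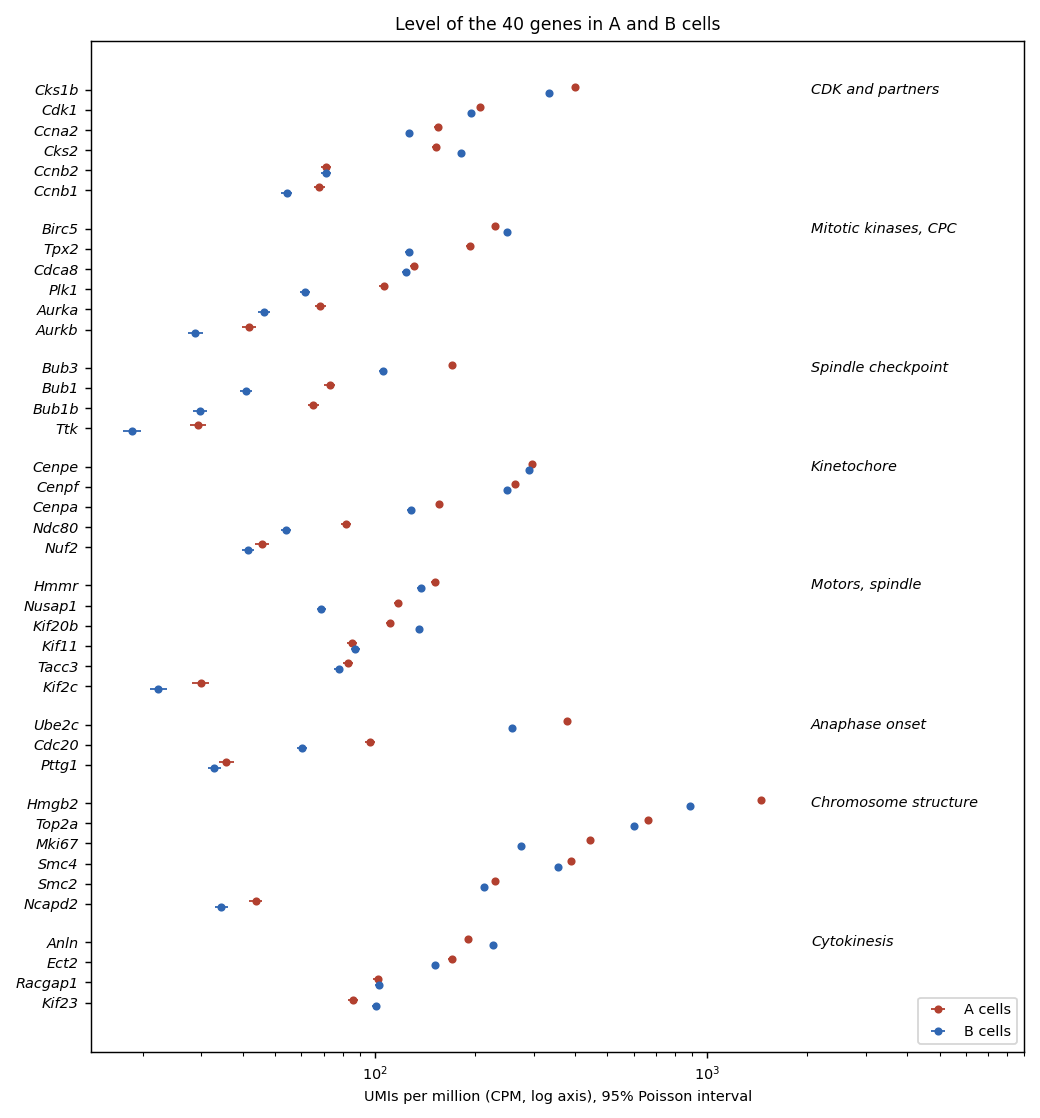
Level of each of the 40 genes in A cells (red) and B cells (blue), in CPM on a log axis, with exact 95% Poisson intervals that cover counting error only; genes are grouped by role (CPC, chromosomal passenger complex) and ordered within a role by their level in A cells. All 4 spindle checkpoint genes lie higher in A cells, whereas Anln, Kif23, Cks2, Kif20b and Birc5 lie higher in B cells.

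Of the 8 roles, the 4 spindle checkpoint genes had the highest summed ratio of A over B cells. Bub1b (ENSMUSG00000040084) encodes BubR1, the part of the checkpoint complex that holds Cdc20, and had 65.1 CPM (62.6 to 67.6) in A cells and 29.8 CPM (28.4 to 31.3) in B cells. It was the only one of the 40 past 2-fold, at 2.18-fold (2.05 to 2.33). Bub1, the kinase that recruits the checkpoint to the kinetochore, had 73.1 CPM in A cells and 41.0 CPM in B cells, a ratio of 1.78 (1.69 to 1.89). Bub3, which tethers both to the kinetochore, had 171 CPM and 106 CPM, a ratio of 1.61 (1.56 to 1.67). Ttk, the Mps1 kinase that starts checkpoint signalling, had 29.3 CPM and 18.6 CPM, a ratio of 1.58 (1.45 to 1.72). All 4 were past 1.5-fold higher in A cells, where 21.8% of all features were, and as a sum they were 1.73-fold higher. Bub1b, Bub1 and Bub3 lie on chromosomes 2 and 7, where 47.7% of features were past that limit. After scaling by the median ratio, Bub3 and Ttk were under it, with log2 ratios of 0.54 and 0.51. The checkpoint genes Mad2l1 and Mad1l1, which are not among the 40 and were picked after their values were seen, had log2 ratios of 0.29 (0.21 to 0.36) and -0.08 (-0.15 to -0.01).

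Of the 6 genes of the mitotic kinases and the chromosomal passenger complex, Plk1 and Tpx2 were past 1.5-fold higher in A cells, where 21.8% of all features were. Plk1, the Polo-like kinase, had 106 CPM (103 to 109) in A cells and 61.6 CPM (59.5 to 63.8) in B cells, a ratio of 1.72 (1.64 to 1.80). Aurka, the Aurora kinase of the spindle poles, had 68.5 and 46.4 CPM, and Tpx2, which activates it, had 192 and 126 CPM. Their ratios were 1.48 and 1.53. Aurkb, the kinase of the passenger complex, had 41.7 and 28.8 CPM, a ratio of 1.45. Its partners in the complex were closer to level or higher in B cells: Cdca8 (borealin) had 131 and 124 CPM, and Birc5 (survivin) had 230 CPM (226 to 235) in A cells and 250 CPM (245 to 254) in B cells. The kinase and 2 other subunits of 1 complex thus had log2 ratios of 0.54, 0.08 and -0.12.

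Anaphase-onset genes were divided as well. Cdc20, the activator of the anaphase-promoting complex and the target of the checkpoint, had 96.6 CPM (93.6 to 99.7) in A cells and 60.3 CPM (58.2 to 62.4) in B cells, a ratio of 1.60 (1.53 to 1.68). Ube2c, the ubiquitin-conjugating enzyme of that complex, had 378 and 258 CPM, a ratio of 1.47, just under the limit of 1.5. Pttg1, securin, which the complex destroys, had 35.7 CPM (33.8 to 37.5) in A cells and 32.9 CPM (31.3 to 34.4) in B cells, a ratio of 1.09 (1.01 to 1.16) that turned below 1 after scaling by the median ratio.

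None of the 6 genes of Cdk1 and its partners was past 1.5-fold, where 21.8% of all features were higher in A cells and 11.8% in B cells. Cdk1 had 207 CPM in A cells and 194 CPM in B cells, Ccna2 (cyclin A) 155 and 127 CPM, and Ccnb1 (cyclin B1) 67.9 and 54.2 CPM. Ccnb2, the second B cyclin, had 71.2 CPM in both, with a log2 ratio interval of -0.07 to 0.07. The small adaptors of the kinase went in opposite directions: Cks1b had 400 CPM in A cells and 334 CPM in B cells, whereas its paralogue Cks2 had 153 CPM (149 to 157) and 182 CPM (178 to 186). Their log2 ratios were 0.26 (0.23 to 0.29) and -0.25 (-0.30 to -0.21). A retrotransposed copy, Cks1brt, is a separate feature with 17 UMIs in A cells and 19 in B cells. How reads that match both copies were counted is not given in the sources used here.

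At the kinetochore, 1 of 5 genes was past 1.5-fold higher in A cells, a share near the 21.8% of all features. Ndc80, the microtubule-binding subunit of the outer kinetochore, had 81.7 CPM (79.0 to 84.6) in A cells and 54.0 CPM (52.1 to 56.0) in B cells, a ratio of 1.51. Its direct partner Nuf2 had 45.7 and 41.5 CPM, a ratio of 1.10 (1.04 to 1.17). Relative to the median of their chromosomes the log2 ratios of Ndc80 and Nuf2 were close, at 0.18 and 0.13. Cenpa, the histone variant that marks centromeres, had 156 and 128 CPM. Cenpe, the kinetochore motor, had 296 CPM (291 to 302) and 290 CPM (286 to 295). Cenpf, a large protein of the outer kinetochore, had 263 and 249 CPM, so these late kinetochore genes were nearly level.

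Among spindle proteins Nusap1, which bundles microtubules around chromosomes, had 117 CPM (114 to 121) in A cells and 68.9 CPM (66.7 to 71.2) in B cells, a ratio of 1.70 (1.63 to 1.78). The motor genes Kif11, Kif2c and Kif20b had lower ratios, but not relative to the median of their chromosomes. On that scale the log2 ratio was 0.21 for Nusap1, 0.48 for Kif11, 0.41 for Kif2c and 0.23 for Kif20b. The motor genes of other roles were lower on it, with -0.02 for Cenpe and -0.32 for Kif23. Kif11, the Eg5 motor that pushes spindle poles apart, had 85.2 and 87.3 CPM. Kif20b had 111 CPM (108 to 114) and 136 CPM (132 to 139), the lowest ratio of the 40, 1.22-fold (1.18 to 1.27) higher in B cells. Kif2c, a microtubule depolymerase, was 1.34-fold higher in A cells, with 29.8 and 22.3 CPM. Hmmr had 151 and 137 CPM and Tacc3, which stabilises spindle fibres, 82.9 and 77.7 CPM.

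Of the genes of chromosome structure, Hmgb2 and Mki67 had the largest ratios of A over B when scaled to all UMIs. Hmgb2, which bends DNA, had 1448 CPM in A cells and 888 CPM in B cells, a ratio of 1.63 (1.61 to 1.65). Mki67, whose Ki-67 protein coats mitotic chromosomes, had 444 CPM (438 to 451) and 275 CPM (271 to 280), a ratio of 1.61 (1.58 to 1.65). Top2a, the topoisomerase that untangles sister chromatids, had 661 and 603 CPM, a ratio of 1.10 (1.08 to 1.12). The condensin genes Smc4 (390 and 354 CPM), Smc2 (230 and 213 CPM) and Ncapd2 (43.7 and 34.5 CPM) had ratios from 1.08 to 1.27, of which Smc4 and Smc2 turned below 1 after scaling by the median ratio, as did Top2a. Top2a and Mki67, both used as markers of proliferation, had log2 ratios of 0.13 and 0.69, but relative to the median of their chromosomes they were at 0.07 and 0.11. On that scale Hmgb2 was at 0.35, Ncapd2 at 0.25, Smc2 at 0.10 and Smc4 at 0.08.

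The cytokinesis genes summed to 549 CPM in A cells and 581 CPM in B cells. Scaled to all UMIs this was the only 1 of the 8 roles with a lower sum in A cells, and after scaling by the median ratio 4 of the 8 were lower. Anln (anillin, of the contractile ring) had 190 CPM (186 to 195) in A cells and 226 CPM (222 to 230) in B cells, and Kif23, the motor of the central spindle, 86.0 and 100.5 CPM. They were 1.19-fold and 1.17-fold higher in B cells. Racgap1, the partner of Kif23 in the centralspindlin complex, had 102 and 103 CPM, and Ect2, which activates RhoA at the cell equator, 170 and 152 CPM.

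The ratios were set beside those of the chromosome on which each gene lies, since whole chromosomes differed between A and B cells. For each chromosome the median log2 ratio over all its features past the floor was set beside its members, with chromosome names from GENCODE M21. The median was 0.55 on chromosome 2 (623 features) and 0.58 on chromosome 7 (536 features). All 6 genes on chromosome 2 lay at or above it, with log2 ratios of 0.55 for Ube2c, 0.56 for Aurka, 0.61 for Tpx2, 0.77 for Nusap1, 0.83 for Bub1 and 1.13 for Bub1b. So did the 3 on chromosome 7, with 0.69 for Mki67, 0.69 for Bub3 and 0.78 for Plk1. On these 2 chromosomes 7 of the 9 genes were past 1.5-fold, and so were 47.7% of all 1159 features there. On the other chromosomes 4 of 31 genes were past it, and 17.6% of 7081 features.

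On chromosome 19 the median was -0.52 over 282 features. Its genes, Kif20b and Kif11, lay above that median, with log2 ratios of -0.29 and -0.03. Of the 4 called genes elsewhere, Hmgb2 (0.71) lies on chromosome 8, with a median of 0.36, and Ndc80 (0.60) on chromosome 17, with 0.41. Cdc20 (0.68, chromosome 4) and Ttk (0.66, chromosome 9) lie on chromosomes with medians of 0.01 and 0.10. Relative to the median of its chromosome, a comparison chosen after the values were seen, Cdc20 was the only gene of the 40 past 1.5-fold higher in A cells, at 0.67, and 0 were in B cells. Of 8210 features with a chromosome, 12.4% and 12.8% were past it on that scale. Next came Bub1b at 0.58 and Ttk at 0.57. On that scale Kif11 was 0.48 higher and Aurkb 0.48 higher in A cells. Anln, Kif23 and Cks2 were the lowest, at -0.34, -0.32 and -0.31. Copy number was not measured, and the chromosome's part in each gene's ratio was not tested.

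**Figure D2:**
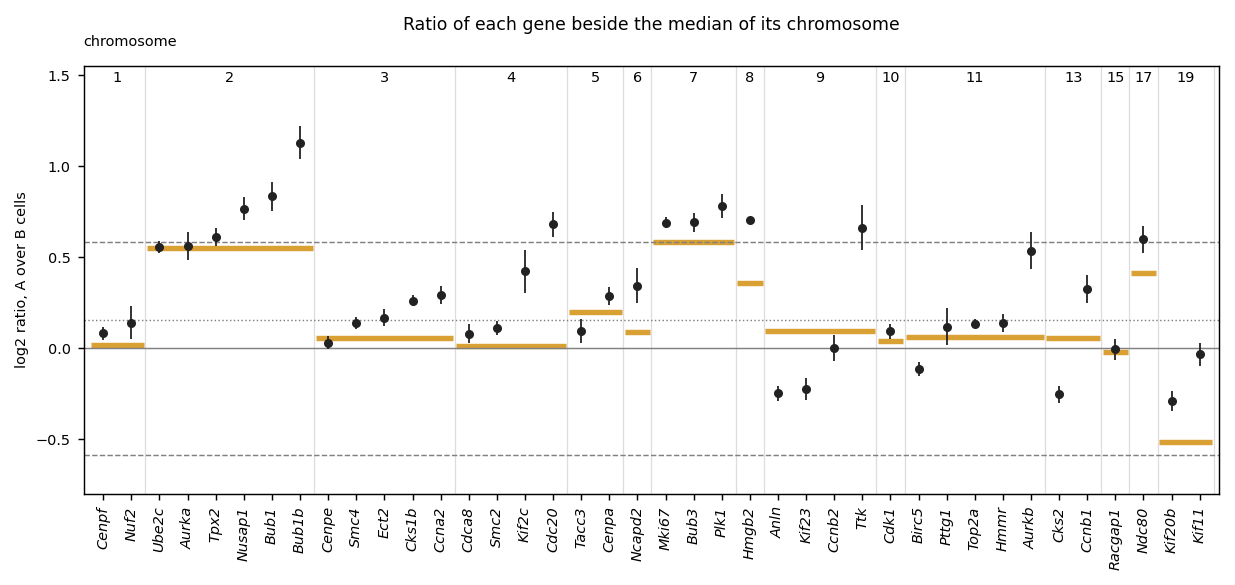
Log2 ratio of A over B cells for each of the 40 genes (points, with exact 95% counting intervals), grouped by chromosome; orange bars are the median over all features of that chromosome past the floor, dashed lines mark 1.5-fold and the dotted line the median of all features (0.16). The genes on chromosomes 2 and 7 lie at or above medians of 0.55 and 0.58, and Kif20b and Kif11 lie above the chromosome 19 median of -0.52.

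The amount of these transcripts per cell varied widely within each group. Each cell was thinned at random to 3000 UMIs, which left out 410 A cells and 109 B cells that were shallower. In the 7406 A cells the 40 genes together had a median of 21 UMIs (10th to 90th percentile 6 to 42), and in the 8827 B cells 17 UMIs (5 to 33). At least 50 UMIs of the 40 genes were found in 3.51% (3.10 to 3.96%) of A cells and in 0.363% (0.248 to 0.511%) of B cells. That limit was the same in both groups, whose means were 22.9 and 18.3 UMIs. These 2 shares therefore do not describe the upper ends apart from the difference in means. Hmgb2 alone had means of 4.27 UMIs in A cells and 2.58 in B cells. At the low end the groups were closer: at most 5 UMIs were found in 9.51% (8.85 to 10.2%) of A cells and 10.7% (10.1 to 11.4%) of B cells, and 0 UMIs in 56 and 73 cells. The A cells had a small separate peak at the low end: 2.11% of them had 2 UMIs, 1.24% had 6 and 3.16% had 15. In B cells the shares went up over the same range, with 1.82% at 2 UMIs, 2.44% at 6 and 3.91% at 15. A cells with at most 5 UMIs of the 40 genes had a median of 3946.5 UMIs before thinning, and such B cells 4747. The library holds no cell type known to lack these transcripts, so the UMIs that free RNA adds to a cell were not measured.

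**Figure D3:**
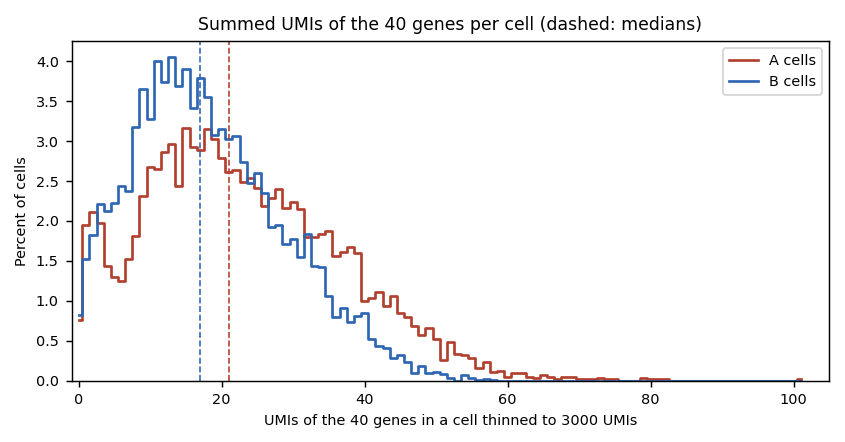
Distribution of the summed UMIs of the 40 genes over cells thinned to 3000 UMIs, as the percent of 7406 A cells (red) and 8827 B cells (blue) at each count; dashed lines are the medians, 21 and 17 UMIs. The A curve has a small peak at 2 UMIs and a dip at 6 that the B curve lacks, and reaches further to the right.

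To see which genes run together, cells were ranked for each gene by the summed UMIs of the other 39, and its mean in the top 10% of cells (high cells) was divided by its mean in the lower 50% (low cells). This ratio of high over low cells was at least 2 for 38 of the 40 genes in A cells and 34 of 40 in B cells, where 1.89% and 1.77% of all features past the floor reached 2. Its median over the 40 was 3.36 in A cells and 2.92 in B cells, and 0.979 in both over all features. High cells were deeper before thinning, with medians of 5248 UMIs in A cells and 6423 in B cells against 4308 and 4911 in low cells. Barcodes marked as doublets made up 0.675% and 1.59% of the high cells and 2.21% and 1.74% of the low cells.

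Nusap1 (ENSMUSG00000027306) had the largest ratio of the 40 in both groups at 3000 UMIs per cell. In A cells it had a mean of 1.03 UMIs per thinned high cell and 0.0743 per low cell, a ratio of 13.9 (12.1 to 16.0), and in B cells 0.539 and 0.0523, a ratio of 10.3 (8.78 to 12.1). In the 3315 A cells and 5542 B cells that could be thinned to 5000 UMIs, its ratios were 6.31 and 6.77. Cenpf, a protein of the outer kinetochore, had 9.68 and 10.0, Aurka 9.54 and 7.28, Ube2c 8.72 and 7.14, and Cenpe 7.24 and 7.73. Plk1 (6.94 and 6.27), Ccnb1 (5.98 and 6.08), Hmmr (5.14 and 4.04), Tpx2 (4.95 and 3.89), Kif20b (4.75 and 5.03) and Kif2c (4.26 and 4.70) followed. The size of these ratios differed at 5000 UMIs, where the depth and the set of cells both changed, so their parts cannot be told apart. There the ratios were 5.12 and 7.24 for Cenpf, 5.43 and 5.11 for Aurka, 4.80 and 5.18 for Ube2c, 4.07 and 5.62 for Cenpe, 4.38 and 5.71 for Plk1, 3.90 and 5.13 for Ccnb1 and 3.06 and 3.24 for Tpx2. The ratio moved by more than 1.5 times for 9 of the 40 genes in A cells (these 7, Nusap1 and Top2a, at 2.65) and for 1 in B cells (Nusap1). The ratio was then at least 2 for 33 genes in A cells and 31 in B cells. Genes used as general markers of proliferation were further down, with Top2a at 3.99 and 3.77, Cdk1 at 3.42 and 3.62 and Mki67 at 3.17 and 2.81.

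Pttg1 (ENSMUSG00000020415) went against the rest. Its ratio of high over low cells was 1.16 (0.914 to 1.47) in A cells and 0.915 (0.712 to 1.16) in B cells, so the counting interval held 1 in both groups and no difference between cells high and low in the other 39 genes was detectable at this depth. In A cells it had 0.120 UMIs per high cell and 0.103 per low cell. In 2 other thinnings, in purer A and B cells and without marked doublets its ratio was between 0.835 and 1.12. At 1436 UMIs in A cells and 1734 in B cells, its counts were close in number to those of Aurkb (1681 and 1519), which had ratios of 3.98 and 4.54. Cks1b was the next flattest, at 1.49 (1.40 to 1.60) and 1.42 (1.33 to 1.52), whereas its paralogue Cks2 had 3.41 and 2.72. In B cells Ccnb2 (1.64), Smc2 (1.67), Hmgb2 (1.88) and Ncapd2 (1.97) were also under 2.

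**Figure D4:**
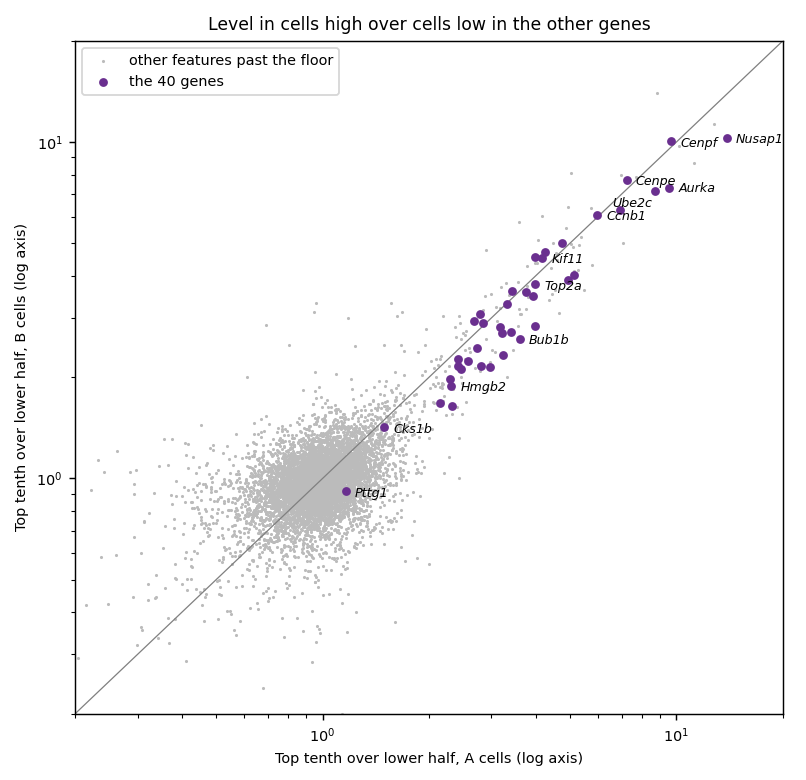
Mean level in the top 10% of thinned cells, ranked by the other genes of the 40, over that in the lower 50%, in A cells (horizontal) and B cells (vertical), both on log axes; purple points are the 40 genes and grey points other features past the floor of 10 CPM with a value above 0 in both, and the line marks equal ratios. Of the 40 genes Nusap1 lies furthest out, at 13.9 and 10.3, near the other feature Fam83d at 12.8 and 11.3, whereas Pttg1, at 1.16 and 0.915, lies among the other features.

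High cells of A and B were also set side by side. They are the top 10% of each group by these same genes, and ranked by the sum of all 40 the top 10% began at 42 UMIs in A cells and 33 in B cells, so higher summed levels in high A cells are part of how they were chosen. The median log2 ratio of A over B in them was 0.34 over the 40 genes and 0.15 over all features. Past 1.5-fold higher in A cells were 14 of the 40 genes, among them the 11 past it over all cells, and 25.5% of all features. In B cells 0 of the 40 and 14.1% of features were. Bub1b had 0.393 UMIs per high A cell and 0.147 per high B cell, a log2 ratio of 1.42 (1.11 to 1.73). For Bub1 it was 1.00, for Ttk 1.00, for Hmgb2 0.96, for Nusap1 0.94 and for Cdc20 0.78. Genes that were lower in A cells over all cells lay near 0 among high cells, with -0.01 for Cks2, -0.01 for Kif23, -0.02 for Birc5 and -0.13 (-0.26 to 0.01) for Anln. Kif20b was at -0.29 (-0.45 to -0.12). Cenpe and Cenpf, at -0.03 and 0.03, were level in high cells as they were over all cells.

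Cells high in replication genes were set against these genes with a list of 35 S-phase genes, such as Mcm2 to Mcm7 and Pcna. In the top 10% of cells by that list, 741 A cells and 883 B cells, 39 of the 40 genes had a lower mean than over all cells in both groups, as had 27.6% of all features past the floor. Some of the 39 lay at the edge, such as Ttk, which was at 0.998 in A cells on 65 UMIs. The exception was Smc2, at 0.959 of the mean in A cells and 1.05 in B cells. Among the lowest were Cenpf, at 0.314 and 0.313, Ube2c at 0.322 and 0.421, Nusap1 at 0.377 and 0.359, Plk1 at 0.332 and 0.461, Aurka at 0.390 and 0.361 and Cenpe at 0.397 and 0.373. These 6 genes also had the 6 largest ratios of high over low cells in both groups at 3000 UMIs. Hmmr, at 0.350 and 0.465, and Ccnb1, at 0.400 and 0.430, were in the same range. At the other end, Ncapd2 (0.987 and 0.984), Ttk (0.905 in B cells), Ect2 (0.934 and 0.939), Hmgb2 (0.860 and 0.969), Bub1 (0.843 and 0.977), Smc4 (0.908 and 0.902) and Mki67 (0.881 and 0.890) had at least 0.843 of their mean over all cells. Cyclin A (Ccna2), at 0.812 and 0.773, lay above cyclin B1, and Cdc20, at 0.456 and 0.527, lay between.

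**Figure D5:**
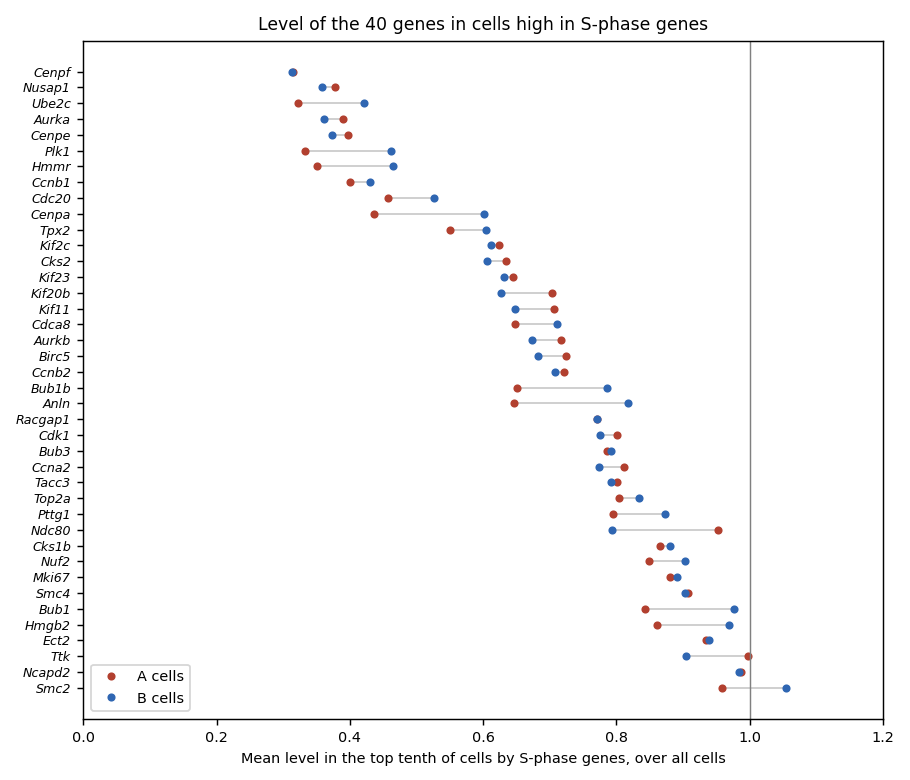
Mean level of each of the 40 genes in the top 10% of thinned cells by S-phase genes, divided by its mean over all thinned cells of the group, in A cells (red) and B cells (blue); grey lines join the values of a gene and the vertical line at 1 marks no difference. Values run from 0.313 for Cenpf in B cells to 1.05 for Smc2 in B cells.

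Other genes of mitosis, from a list of 108 that holds none of the 40, were also compared. Of 106 past the floor, 35 were past 1.5-fold higher in A cells, where 21.8% of all features were, and 1 in B cells, where 11.8% were. Their median log2 ratio was 0.38, and that of all features 0.16. After scaling by the median ratio 20 were past 1.5-fold in A cells and 4 in B cells, where 15.3% and 15.8% of features were. Some of the 35 genes past the limit before that scaling lie on chromosomes 2 and 7, and others do not. On these 2 chromosomes 47.7% of all features were past it. The chromosome's part in the count of 35 was not tested. At least 2-fold higher levels in high cells than in low cells, in both groups, were found for 1.5% of all features and for 15 of 16 spindle motor and microtubule genes, 10 of 11 cytokinesis genes and 11 of 18 checkpoint and kinase genes, but for 7 of 24 kinetochore and centromere genes, 3 of 18 genes of the anaphase-promoting complex and separation, 2 of 10 condensin and cohesin genes and 1 of 9 genes that regulate their transcription, which was Foxm1 (2.28 and 2.16). The highest ratios of A over B in the list belonged to Psrc1, a spindle protein with 21.4 and 6.80 CPM (log2 1.65), and Rbl2, the p130 pocket protein of DREAM, with 26.5 and 8.51 CPM (log2 1.64). The lowest belonged to Lmnb1, lamin B1, with 97.9 and 160 CPM (log2 -0.71), and Smc3, of cohesin, with 182 and 252 CPM (log2 -0.46). Smc3 lies on chromosome 19, where the median log2 ratio of all features was -0.52. None of 34 S-phase genes past the floor was 2-fold higher in high cells in both groups; their median ratios were 0.529 in A cells and 0.490 in B cells.

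Of the 40 features with the highest ratio of high over low cells, by the lower of the values in A and B cells, 13 were among the 40 genes, 17 were in the list of other mitotic genes and 10 in neither list. The 8 highest of those were Fam83d (12.8 in A cells and 11.3 in B cells), Sapcd2 (10.2 and 9.76), Pimreg (7.07 and 5.00), Miip (5.11 and 4.88), Ccdc18 (4.58 and 4.47), Cdkn2d (4.47 and 5.00), Arhgap19 (5.77 and 4.31) and Arl6ip1 (5.25 and 4.16). Fam83d, which recruits casein kinase to the spindle, had the highest value of all 8240 features, with 22.3 CPM in A cells and 10.5 CPM in B cells. Arl6ip1, a membrane protein of the endoplasmic reticulum, had 361 and 235 CPM. Cdkn2d encodes an inhibitor of the G1 kinases Cdk4 and Cdk6, and in these cells its transcript was high together with the mitotic genes. These likenesses describe 1 library and rest on the ranking by the 40 genes.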

How the data were processed

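Gene expression was read from 1 deposited matrix of whole-number UMI counts per feature and cell barcode, not normalized, written by Cell Ranger 8.0.1 per the file headers, on build GRCm39 per the submitters' processing notes. The annotation and the settings for calling cells are not given in the sources used here. In total 116505698 UMIs were counted in 22178 barcodes, with 500 to 23576 in each. Cells were kept with at least 2000 UMIs, 1000 genes and at most 15% mitochondrial UMIs. The genes, the lists and the rule for A and B cells were chosen with earlier results of these data known. The main values kept all barcodes that passed the A and B rules, of which 41 A cells and 64 B cells had at least 2 UMIs of both marker lists. Barcodes marked by Scrublet in scanpy 1.11.5, at an expected rate of 0.08, were left out as an alternative: 146 A cells, 208 B cells and 424 in neither.

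Levels are summed UMIs of a gene per 1000000 UMIs of the group (CPM). 3′ counting gives 1 count per molecule, so no length scaling was applied. Poisson intervals, and conditional binomial intervals of ratios, are exact at 95%. Features were kept at a mean of A and B of at least 10 CPM, and a feature was called past 1.5-fold. Per-cell values come from cells thinned to 3000 UMIs without replacement. Genes named were all 40, and by rule the 2 highest and 2 lowest of the list of other mitotic genes and the 8 features outside the lists with the highest ratio of high over low cells. Mad2l1, Mad1l1, Incenp, Aspm, Foxm1 and Cks1brt were named outside this rule, after their values were seen. Steps were tested on simulated data (Python 3.11.15, numpy 2.4.6, scipy 1.17.1, pandas 2.3.3). Chromosome names were matched for all 40 genes and for 32012 of 33696 features, and promoters by symbol.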

Additional observations from a re-analysis of the deposited data

Results flagged for a closer look

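Cells and barcodes outside the comparison of A and B cells also held these transcripts. In the 4609 cells of neither group the 40 genes summed to 6788 CPM, which lay between the 7858 CPM of A cells and the 6385 CPM of B cells. Of these cells 3966 had under 2 UMIs of both marker lists and 464 had at least 2 of both, and 9.20% were marked as doublets. In the 817 barcodes that failed the filter the sum was 6253 CPM, at a median of 1087 UMIs and 11.1% mitochondrial UMIs. The library has no control cells without these transcripts, so both sums are given as values only.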

How the results depend on the processing

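The summed log2 ratio of A over B was 0.32 without mitochondrial UMIs in the scaling, 0.14 after scaling by the median ratio over all features, 0.33 in thinned cells, 0.29 in purer A and B cells (at least 4 marker UMIs and 0 of the other list) and 0.22 without Hmgb2, an alternative chosen after seeing the data. The median over the 40 genes was 0.059 after scaling by the median ratio, 0.14 over genes past 50 CPM and 0.10 relative to the chromosome median, also chosen after seeing the data. The number of genes past the limit in A cells was 4 after scaling by the median ratio, 17 at a lower fold limit (37.5% of all features), 1 at 2-fold (8.75%) and 1 relative to the chromosome median (12.4%). It was 9 to 14 under the other settings, and 0 genes were past the limit in B cells under any setting run. Scaling by the median ratio turned the log2 ratio to -0.021 for Top2a, -0.062 for Cdk1, -0.015 for Nuf2, -0.074 for Cenpf, -0.016 for Hmmr, -0.037 for Pttg1, -0.018 for Smc4, -0.044 for Smc2, -0.061 for Tacc3, -0.077 for Cdca8 and -0.12 for Cenpe, since it takes the median of all features, 0.16, from each. Thinned to 5000 UMIs, the median per cell was 45 UMIs in A cells and 34.5 in B cells, and the median ratio of high over low cells was 2.48 in A cells and 2.60 in B cells, so that the order of A and B turned. In purer B cells the median per cell was 18 UMIs. Setting the top 25% of cells against the lowest 25% gave median ratios of 4.60 in A cells and 4.22 in B cells. For these changes the cause was not tested. With 1 library, no replicate could be left out. No paired analysis was possible because all cells came from 1 library. Each gene had at least 979 UMIs in each group, which limits counting error, whereas the spread between cultures was not measured. The median log2 ratio among high cells was 0.24 to 0.30 under its alternatives.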
